A study of Mus musculus with 8 samples.

Results

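Eya1 is one of 4 mouse Eya genes, and its measured RNA was lower in every menin-deficient mouse than in any control, by more than any other tested probe set of the arrays. The Eya and Dach genes and the sine oculis homologues, such as Six4 and Six5, form a network first worked out in the Drosophila eye. The sine oculis homologues bind DNA through a homeodomain, Eya proteins join them as co-activators without binding DNA themselves, and Dach proteins, relatives of Ski, act as co-repressors or partners. Eya proteins are also tyrosine phosphatases, and one known substrate is the histone variant H2AX. In haematopoietic cells Eya1 is best known as a gene driven by leukaemic fusions of MLL, the histone methyltransferase that menin joins at target genes.

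The genes described are Eya1, Eya2, Eya3, Eya4, Six4, Six5 and Dach1, 7 in all, and every probe set that the platform annotation gives to 1 of these symbols alone was taken, which made 20 of 45037 probe sets. They were chosen by the log2 difference between the genotypes, with the fall of Eya1 in view. Their differences are therefore given as a description, without p-values, and support nothing. Positions come from RefSeq on GRCm38.p6. Eya1 lies on chromosome 1 (14168953 to 14311035), Eya2 on chromosome 2 (165595028 to 165771727), Eya3 on chromosome 4 (132639025 to 132724765) and Eya4 on chromosome 10 (23102962 to 23350838). Six4 lies on chromosome 12 (73099609 to 73114031), Six5 on chromosome 7 (19094544 to 19098549) and Dach1 on chromosome 14 (97786846 to 98169765).

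The arrays measured RNA of Fraction B pro-B cells, an early B-lineage stage of mouse bone marrow sorted as B220+CD43+HSA+BP-1-. Menin-deficient cells came from 4 Rag1-cre;MenF/F mice, and control cells from 4 MenF/F mice without Cre. Both groups thus carried floxed Men1, the gene of menin, and the labels give all mice an age of 2 to 3 weeks (3 weeks in the study's design text). Rag1-cre acts from early lymphoid stages on. Since Cre was present in all menin-deficient mice and in none of the controls, its own effects and those of losing menin cannot be told apart. In sorted populations fewer expressing cells and less RNA per cell cannot be told apart either.

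Men1, read first as a check of the labels, lay between 7.85 and 8.50 in menin-deficient arrays and between 9.19 and 9.81 in control arrays on its brightest probe set, and all 3 of its probe sets were called lower. The place of these probe sets relative to the floxed part was not analysed here, so the deletion itself is not checked by them. Values are deposited log2 values per probe set, and every array reaches the same lowest value of 2.08. By sex-linked genes, 2 menin-deficient mice and 1 control mouse were male. Of 11 tested pro-B markers 1 rose (Dntt, by 0.35) and 1 fell (Rag1, by 0.28) by limma, and 4 had an unadjusted p under 0.05. Blnk and Igll1 differed by 0.39 and 0.38 with groups that did not overlap. Neither passed the threshold (limma adjusted p = 0.0610 and 0.0599). Over all 11885 genes by their brightest probe set, 13.6% were called higher and 4.38% lower. The mean level of the pro-B markers was 14.17 to 14.30 in menin-deficient arrays, against 14.01 to 14.20 in control arrays. Markers were read on their brightest probe set, and on it none of the 4 markers of the sort passed the threshold by limma (0 at an unadjusted p under 0.05), while the dimmer of the 2 probe sets of Ptprc was called lower. A dimmer probe set was also called lower for the pro-B marker Ebf1 (1 of 5). The number of arrays limits the precision.

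The members split into those with signal and those at the bottom of the scale. Of the 20 probe sets, 13 stayed within 0.1 of the lowest value on all 8 arrays, against 39% of all probe sets. Signal well above it came from probe sets of Eya1, Eya2 and Eya3. All 4 probe sets of Eya4 and all 4 of Six4 lay between 2.08 and 2.14 on every array, and the Six5 probe set read 2.08 throughout. For Dach1, 2 probe sets lay at 2.08, and the other read 2.42 to 2.66 in menin-deficient arrays and 2.43 on all 4 control arrays. Signal was thus not detectable for Eya4, Six4 and Six5 and close to the lowest value for Dach1, which does not show that their RNA was absent.

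**Figure D1:**
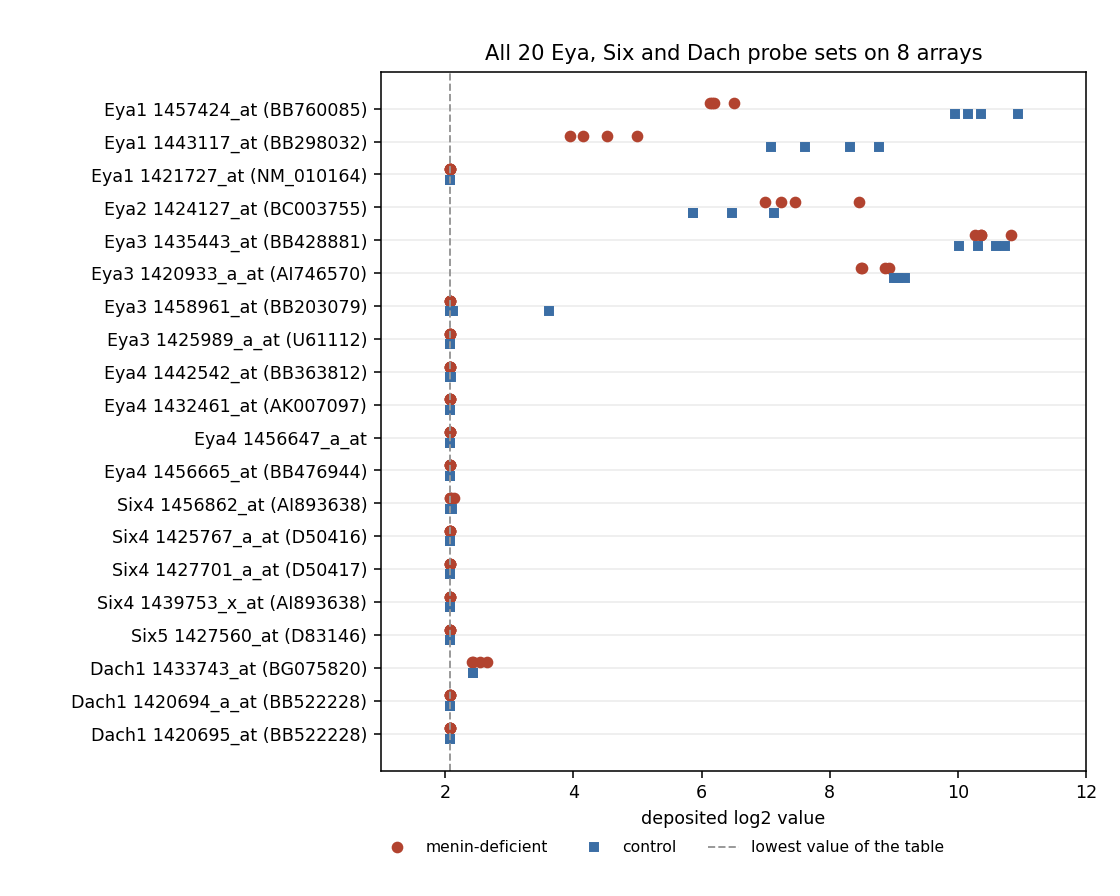
Deposited log2 value (x axis) of each of the 20 probe sets of Eya1 to Eya4, Six4, Six5 and Dach1 (rows, with the sequence each was made from) on the 4 menin-deficient arrays (circles) and the 4 control arrays (squares). The dashed line marks the lowest value of the table, 2.08, and 13 probe sets lie within 0.1 of it on all 8 arrays.

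RefSeq promoter entries (GRCm38.p6) were found for 5 of the 7 members, Eya3, Eya4, Six4, Six5 and Dach1, 7 entries in all. The sequences below are the 250 bases before an annotated start, shown for Eya3, which had signal on every array, and for Dach1, which lay near the lowest value. Both run 5′ to 3′ on the gene's strand, with every CpG dinucleotide in capitals. Eya3 lies on the plus strand at chr4:132638796-132639045 and Dach1 on the minus strand at chr14:98169766-98170015.
Eya3: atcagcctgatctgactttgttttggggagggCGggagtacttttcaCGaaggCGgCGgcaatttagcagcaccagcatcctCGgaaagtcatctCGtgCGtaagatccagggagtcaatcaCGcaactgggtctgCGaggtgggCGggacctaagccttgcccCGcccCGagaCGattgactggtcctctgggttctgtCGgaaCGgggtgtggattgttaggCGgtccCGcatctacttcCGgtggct
Dach1: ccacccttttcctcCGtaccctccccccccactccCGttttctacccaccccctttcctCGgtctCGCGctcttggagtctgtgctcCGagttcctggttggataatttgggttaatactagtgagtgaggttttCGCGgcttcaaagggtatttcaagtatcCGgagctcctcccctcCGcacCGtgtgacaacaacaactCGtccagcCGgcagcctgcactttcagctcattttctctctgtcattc
The Eya3 stretch holds 18 CpG dinucleotides and the Dach1 stretch 13. The 2 Eya4 entries, which overlap, hold 25 and 35, the 2 overlapping Six4 entries 13 and 15, and the Six5 entry 13. The median over 32851 entries of the same length was 6, and 31.5% of entries held 13 or more. The cut of 13 is the lowest count among the member entries. All 7 therefore lie in that share by construction, and nothing is read from it.

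The sine oculis homologues bind the MEF3 element, and its leading letters TCAGGTT were searched on both strands of the 250 bases. They occurred in 1 of the 7 member entries, an entry of Six4, against 3.49% of all entries. The 7 entries come from 5 genes and some overlap, so nothing is read from this share. The match lies within chr12:73113324-73113353 on the minus strand, inside the annotated Six4 gene (73099609 to 73114031). It is shown with its flanks, the matched letters (the reverse complement of the motif) in capitals.
Six4: ggcctgggggaAACCTGAtcggccagatcc
A match of letters is a description and not a binding site.

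Eya1 was lower in every menin-deficient mouse on both probe sets with signal. On the brighter one, made from BB760085, the values were 6.50, 6.20, 6.16 and 6.13 in menin-deficient replicates 1 to 4, and 10.16, 10.35, 9.95 and 10.93 in control replicates 1 to 4. The groups were far apart: the lowest control array lay 3.44 above the highest menin-deficient one, while the menin-deficient arrays spanned 0.37 and the control arrays 0.98. The mean was 6.25 ± 0.17 in menin-deficient cells and 10.35 ± 0.42 in control cells (SD, n = 4 each), a log2 difference of -4.10 (SE 0.21), or 17.1-fold lower. The menin-deficient values still stood well above the lowest value of the table.

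On the dimmer probe set, made from BB298032, menin-deficient replicates 1 to 4 read 4.99, 4.16, 4.53 and 3.96, and control replicates 1 to 4 read 8.31, 7.61, 7.09 and 8.77. Again no array of one group entered the range of the other. The means were 4.41 ± 0.46 in menin-deficient cells and 7.95 ± 0.74 in control cells (SD, n = 4 each), which is 11.6-fold lower (log2 difference -3.54, SE 0.40). Among controls, replicate 4 was highest and replicate 3 lowest on both probe sets. Among menin-deficient mice, replicate 1 was highest and replicate 4 lowest on both. Of all tested probe sets, these ranked 1 and 2 by the size of the fall.

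The remaining Eya1 probe set read 2.08 on all 8 arrays. It is the one that the platform annotation ties to a RefSeq transcript of Eya1 (NM_010164), while BB760085 and BB298032 are not among the transcripts that the RefSeq gene table lists for Eya1. Where those sequences lie on the gene was not analysed here. BB760085 and BB298032 are not RefSeq names and could not be in that list. Their absence therefore does not show that these probe sets miss Eya1 transcripts. The sequences named for the probe sets of Eya2 and Eya3 are not listed for their genes either. The fall described above rests on probe sets made from sequences outside the list. The probe set made from a listed transcript gave no signal in either genotype.

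Eya2 differed in the other direction, with overlapping groups. Its only probe set, made from BC003755, read 6.99, 8.46, 7.24 and 7.46 in menin-deficient replicates 1 to 4, and 6.47, 5.86, 5.86 and 7.13 in control replicates 1 to 4. The highest control array lay above the lowest menin-deficient one, and control replicates 2 and 3 held the same value. The mean was 7.54 ± 0.64 in menin-deficient cells and 6.33 ± 0.60 in control cells (SD, n = 4 each), a log2 difference of 1.21 (SE 0.41, 95% interval 0.25 to 2.17) that was not called at an adjusted p under 0.05. The difference was 0.90 when menin-deficient replicate 2 was left out and 1.47 when control replicate 4 was.

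Eya3 had signal on 2 of its 4 probe sets, and these disagreed. On the brighter one, made from BB428881, the values were 10.26, 10.36, 10.83 and 10.36 in menin-deficient replicates 1 to 4, and 10.01, 10.59, 10.74 and 10.31 in control replicates 1 to 4. The groups lay on top of each other, with a log2 difference of 0.04 (SE 0.19, 95% interval -0.41 to 0.49). On the dimmer one, made from AI746570, menin-deficient replicates 1 to 4 read 8.87, 8.48, 8.93 and 8.49, and control replicates 1 to 4 read 9.07, 9.17, 9.05 and 8.998. Here the groups did not overlap, but only 0.07 lay between the highest menin-deficient and the lowest control array. That difference was -0.38 (SE 0.12) and was not called.

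The other Eya3 probe sets carried almost nothing. The one made from U61112 read 2.08 on all arrays. The one made from BB203079 read 2.08 on all 4 menin-deficient arrays and 2.08 to 2.12 on 3 control arrays, with 3.63 in control replicate 1.

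Over the members, 6 of 20 probe sets passed the filter on low values: 2 of Eya1, 1 of Eya2, 2 of Eya3 and 1 of Dach1. Of these, 2 were called lower and 0 higher at an adjusted p under 0.05 (limma with Benjamini-Hochberg adjustment), where 4.87% of 26790 tested probe sets were lower and 9.34% higher. Both calls are those of Eya1. Groups did not overlap for 3 of the 6, all lower, against 7.05% of tested probe sets lower and 14.3% higher without overlap. Since the genotype contrast chose the members, nothing is read from these counts. The probe sets outside the threshold differed by 1.21 for Eya2, -0.38 and 0.04 for Eya3 and 0.08 for Dach1.

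**Figure D2:**
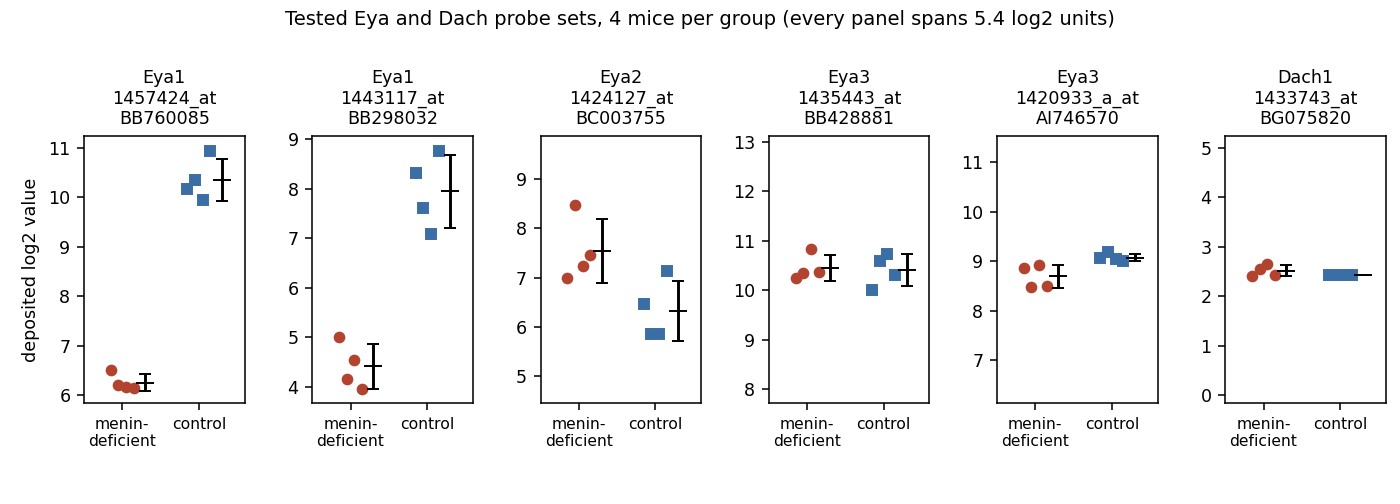
Deposited log2 values (y axis) of the 6 member probe sets that passed the filter, with menin-deficient mice (circles) left of control mice (squares) and the mean ± SD of 4 mice beside each group. The y axes span equal numbers of log2 units, and the groups are 3.44 and 2.10 apart for the 2 Eya1 probe sets, while those of Eya2, of the brighter Eya3 probe set and of Dach1 overlap.

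The same fit called 3808 probe sets, or 14.2%, of which 2503 were higher and 1305 lower in menin-deficient cells, so that 65.7% of calls were rises. The split moved with scaling. Rises made up 52.3% of calls after centring each array on its median tested probe set and 36.2% after centring on its median tested gene, which lay 0.13 higher in menin-deficient arrays. Relative to that median gene, the difference of Eya1 was -4.23 and that of Eya2 1.08. Those of Eya3 were -0.09 on the brighter probe set, which changed sign, and -0.51 on the dimmer one, which was then called.

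Partners of the network were examined by lists of their roles, each gene by its brightest probe set. Of 58 genes in 5 lists, 53 had a probe set with 1 symbol and 36 were tested, of which 4 rose, 2 fell and 30 failed to pass. Over all 11885 genes taken the same way, 18% passed, 13.6% higher and 4.38% lower. The median log2 difference of the 36 was 0.11, as over all genes.

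A list of other Pax and Dach genes and sine oculis homologues, transcription factors of the same network, gave little signal. Of its 11 genes on the array, Pax1, Pax3, Pax4, Pax6, Pax8, Pax9, Six2, Six3 and Six6 stayed within 0.1 of the lowest value on all 8 arrays. Of this list Pax7 and Dach2 were tested, with log2 differences of 0.02 and 0.10, and neither passed by limma (0 at an unadjusted p under 0.05). Pax5, which was listed among the pro-B markers and is named here after its values were seen, averaged 9.24 ± 0.16 in menin-deficient cells and 9.32 ± 0.13 in control cells (log2, SD, n = 4 each) and differed by -0.07 (limma adjusted p = 0.676). Pax2 was not analysed here.

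Cofactors of Dach proteins and sine oculis homologues divided between rises and falls, with 2 of 12 tested higher, 2 lower and 8 not past the threshold. Among those 8, a dimmer probe set was called higher for Tle1 (1 of 2) and lower for Tbl1xr1 (1 of 6). Tle3, a Groucho-family co-repressor, rose to 13.65 ± 0.13 in menin-deficient cells, against 12.98 ± 0.25 in control cells (log2, SD, n = 4 each), a difference of 0.67 (SE 0.13, limma adjusted p = 0.0201). Sin3a, the scaffold of a histone deacetylase complex, rose by 0.31 (SE 0.08, limma adjusted p = 0.0467). Ep300, a histone acetyltransferase and co-activator, fell by 0.60 on the log2 scale (SE 0.13, limma adjusted p = 0.0290). Smad4, the shared mediator of TGF-beta signalling, fell by 0.44 (SE 0.08, limma adjusted p = 0.0160). Crebbp, the paralogue of Ep300, differed by 0.17 (limma adjusted p = 0.0771) and the deacetylase Hdac3 by 0.12 (limma adjusted p = 0.180).

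Among Eya substrates and partners at damaged DNA, 1 of 10 tested genes rose and 0 fell by limma. Apbb1, which encodes the adaptor Fe65, read 10.82, 11.46, 11.47 and 10.94 in menin-deficient replicates 1 to 4, and 10.04, 10.17, 9.45 and 10.10 in control replicates 1 to 4. No control array reached the menin-deficient ones. The difference was 1.23 (SE 0.22, limma adjusted p = 0.0155), 2.35-fold higher, and both of its probe sets passed. H2ax, which encodes the histone substrate, differed by 0.03 (limma adjusted p = 0.874), and Baz1b, whose product phosphorylates the tyrosine from which Eya removes phosphate, by -0.0049 (limma adjusted p = 0.997). Atm and Abl1, kinases of the damage response, differed by 0.35 and 0.60 (limma adjusted p = 0.0606 and 0.0781).

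Eya4 is known to act with innate immune adaptors, and of 5 tested genes of that kind 1 rose. Nlrx1, a mitochondrial regulator of that pathway, was at 8.66 ± 0.26 in menin-deficient cells and 8.04 ± 0.15 in control cells (log2, SD, n = 4 each), a rise of 0.62 (SE 0.14, limma adjusted p = 0.0320). The adaptors Mavs and Sting1 differed by 0.25 and 0.24, neither past the threshold, and Ifnb1 lay near the lowest value. Of the genes known from other tissues as targets of Eya proteins or sine oculis homologues, 0 of 7 tested passed by limma on their brightest probe set (1 at an unadjusted p under 0.05). The dimmer of the 2 probe sets of Jun was called higher. Mycn, a MYC family gene, differed by 0.99 (SE 0.32, limma adjusted p = 0.0829) with groups that did not overlap, and Ccnd1, cyclin D1, by 0.71 (limma adjusted p = 0.175). Myog, Myod1, Gdnf and Sall1, targets in muscle and kidney, stayed within 0.1 of the lowest value.

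Most of these partner calls were lost when any 1 of several arrays was left out. Calls over all probe sets also became fewer, from 3808 to between 1786 and 3366. The count of 6 partner calls became 2 without control replicate 1, 3 when menin-deficient replicate 1 was left out and 1 when menin-deficient replicate 2 was. Apbb1 kept its call whichever array was left out, and Smad4 lost it without menin-deficient replicate 2 (limma adjusted p = 0.0519). Tle3 lost it without control replicate 1 or menin-deficient replicates 2 or 4 (limma adjusted p = 0.0539 to 0.0581). Ep300 lost its call without control replicates 1, 3 or 4 or menin-deficient replicates 1 or 2 (limma adjusted p = 0.0590 to 0.0822), and Nlrx1 without control replicates 1, 2 or 3 or menin-deficient replicates 1 or 2 (limma adjusted p = 0.0656 to 0.0842). Sin3a kept its call only without control replicate 3 (limma adjusted p = 0.0587 to 0.122 in the other 7). The calls of Smad4, Sin3a and Tle3 rest on 1 of 3, 1 of 3 and 1 of 4 probe sets. Averaged over their tested probe sets, these genes differed by -0.12, 0.09 and 0.35, and none was called (limma adjusted p = 0.358, 0.698 and 0.109).

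**Figure D3:**
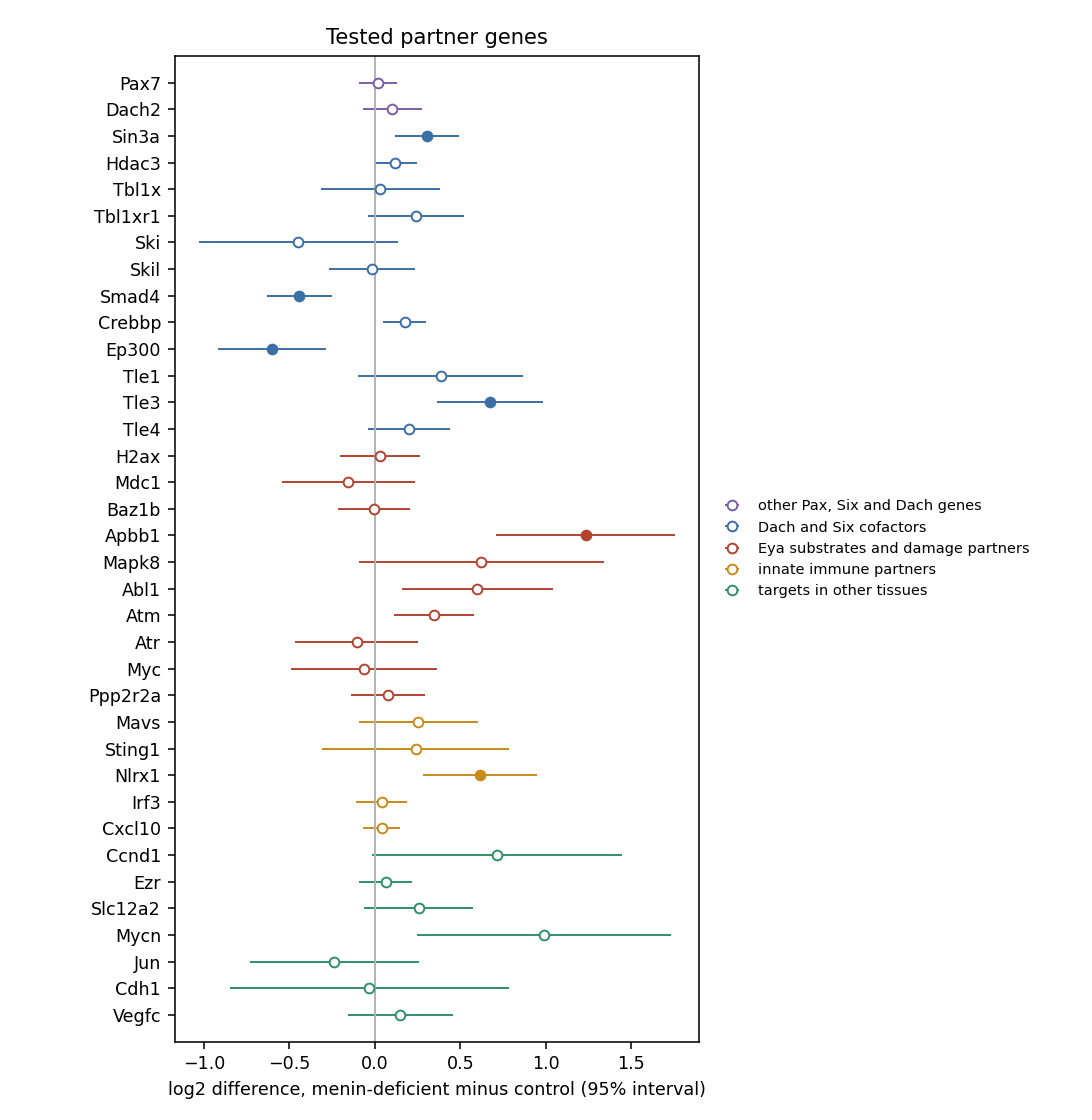
Log2 difference, menin-deficient minus control, with its 95% interval (x axis) for the 36 tested partner genes (rows), coloured by list, with filled points where the adjusted p was under 0.05. The 4 filled points right of 0 are Sin3a, Tle3, Apbb1 and Nlrx1, and the 2 left of it are Smad4 and Ep300.

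Genes beside Eya1 on chromosome 1 were each read on their brightest probe set. Eya1 was chosen for its fall, so the size of its difference is not compared with theirs. The 3 nearest genes with a probe set on each side were Lactb2, Tram1 and Ncoa2 before it, and Msc, Trpa1 and Terf1 after it. Ncoa2, a nuclear receptor co-activator, fell by 0.39 (SE 0.07, limma adjusted p = 0.0137). Trpa1, a cation channel of sensory neurons, was at 4.90 ± 0.78 in menin-deficient cells and 2.56 ± 0.37 in control cells (log2, SD, n = 4 each), a rise of 2.34 (SE 0.40, limma adjusted p = 0.0134), with control values close to the lowest value. Lactb2, the nearest on its side at 508.4 kb, differed by -0.64 with groups that did not overlap (limma adjusted p = 0.0841), Terf1, a telomere protein, by -0.39 (limma adjusted p = 0.113) and Tram1, of the protein translocon, by -0.0149 (limma adjusted p = 0.900). With the mean of its tested probe sets Lactb2 differed by -0.32 (limma adjusted p = 0.109). Relative to the median tested gene both Lactb2 and Terf1 were called (-0.77 and -0.51, limma adjusted p = 0.0458 and 0.0496). Lactb2 was also called with the 60th percentile filter (limma adjusted p = 0.0454). Terf1 was called with array weights (limma adjusted p = 0.0396), and without control replicate 3 it was called as well (limma adjusted p = 0.0426). Msc, 442.3 kb away, did not pass the filter.

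Around all 7 members 28 of 42 such neighbours were tested, and 3 rose and 2 fell, a share close to the 18% of all 11885 genes called (13.6% higher and 4.38% lower). Besides Trpa1 and Ncoa2 these were Xkr8, which encodes a lipid scramblase and lies 0.1 kb from Eya3 (0.51, limma adjusted p = 0.0383), Mnat1, a subunit of the CDK-activating kinase that overlaps Six4 (0.54, limma adjusted p = 0.0126), and Mzt1, a partner of gamma-tubulin, near Dach1 (-0.28, limma adjusted p = 0.0196). Xkr8 kept its call only without menin-deficient replicate 4 (limma adjusted p = 0.0653 to 0.102 in the other 7), and Mzt1 lost it without control replicate 1 (limma adjusted p = 0.0556). Mzt1 was called on 1 of 4 probe sets, and not with the mean of the tested ones (-0.32, limma adjusted p = 0.0928). On the called probe set control replicates 1, 2 and 3 held the same value (13.15), which narrows the control spread. On their brightest probe set none of the tested neighbours of Eya2, Eya4 and Six5 passed by limma (4 had an unadjusted p under 0.05), while a dimmer probe set was called higher for Zmynd8 (1 of 5) and Sulf2 (1 of 3), both beside Eya2.

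**Figure D4:**
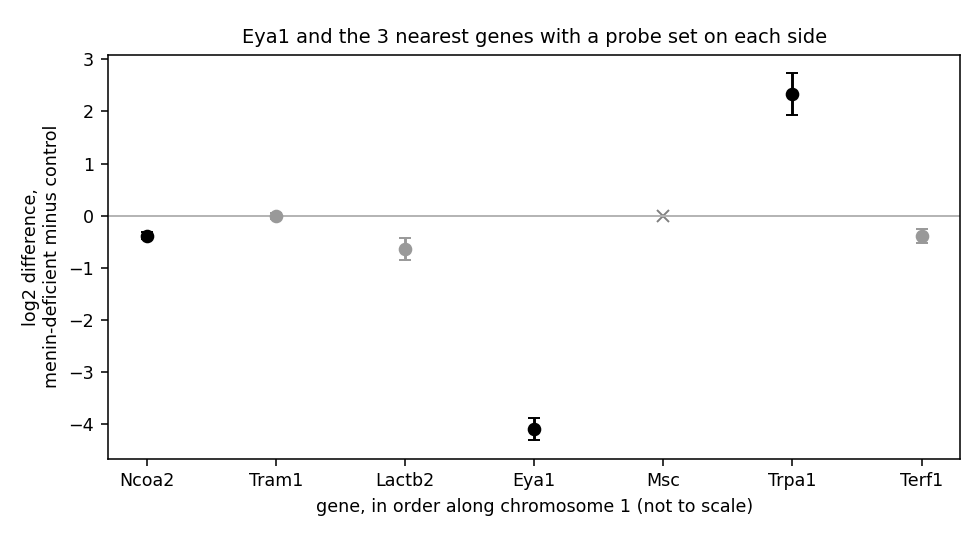
Log2 difference, menin-deficient minus control, with its SE (y axis) for Eya1 and the 3 nearest genes with a probe set on each side, in order along chromosome 1. Black points were called, grey points were not, and the cross is Msc, which was not tested. Eya1, at -4.10, was chosen for its fall, so the size of its difference is not compared with those of its neighbours.

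The profile of the brighter Eya1 probe set was compared with 22194 tested probe sets of other genes, by the Euclidean distance between log2 values minus the control mean over the 8 arrays. The other Eya1 probe set lay nearer than any of these. The nearest of other genes were Sbno2, a transcriptional co-regulator (2.81), Jchain, the joining chain of secreted antibodies (2.98), an immunoglobulin kappa variable segment (3.33), Meis1, a partner of Hox proteins (3.36), and Sytl4, a Rab27 effector of secretion (3.51). The log2 differences of these 5 lay between -3.16 and -2.42. Likeness here is mostly the size of the fall, since the arrays form 2 groups. The Sbno2 probe set ends in _x_at and can match several genes, and the 3 remaining probe sets of Sbno2 gave 0.13, -0.87 and -0.86, none past the threshold.

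**Figure D5:**
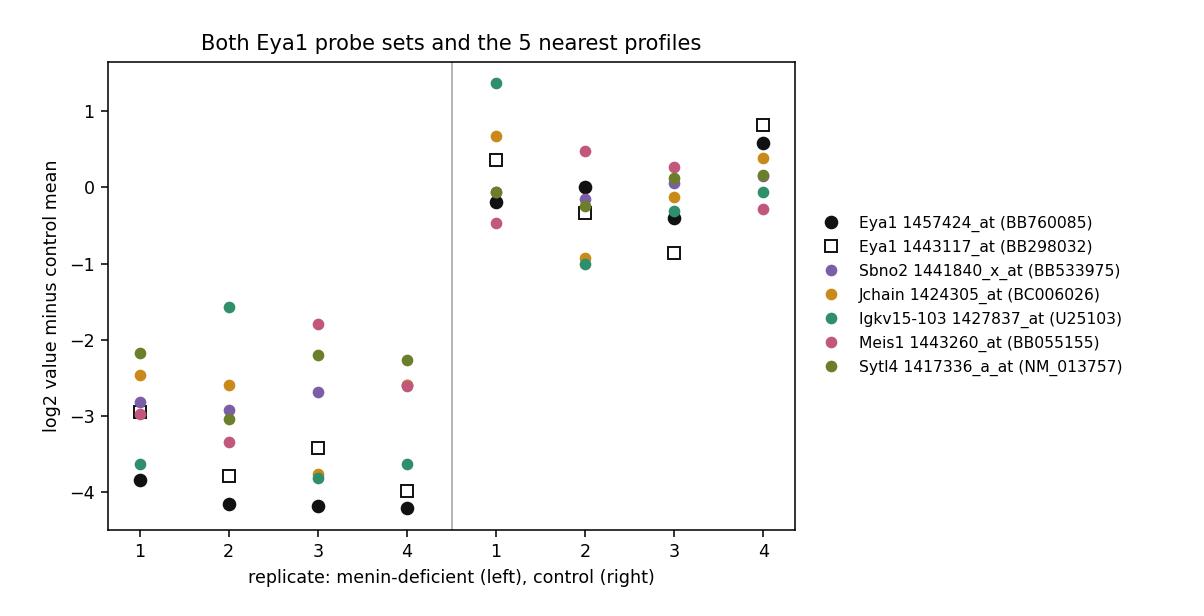
Log2 value minus the control mean (y axis) on each array, with menin-deficient replicates on the left and control replicates on the right, for both Eya1 probe sets (black) and the 5 nearest probe sets of other genes (colours). The brighter Eya1 probe set, of a gene chosen for its fall, lies lowest on every menin-deficient array.

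Hoxa9 and Meis1, known with Eya1 as genes bound by menin and MLL, were also lower. They were listed with earlier results of these data known, and binding was not measured here. On its brightest probe set Hoxa9 averaged 10.98 ± 0.33 in menin-deficient cells and 12.64 ± 0.37 in control cells (log2, SD, n = 4 each, limma adjusted p = 0.00793). The other of its 2 probe sets was not called. Meis1 averaged 8.77 ± 0.31 in menin-deficient cells and 9.96 ± 0.34 in control cells (log2, SD, n = 4 each, limma adjusted p = 0.0151). This is not the Meis1 probe set near the Eya1 profile, which is dimmer and differed by -2.68, against -1.19 here. Kmt2a, which encodes MLL, differed by 0.15 (SE 0.12, limma adjusted p = 0.469).

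Markers of other cells were read beside these values, each on its brightest probe set. Over all 11885 genes taken that way, 13.6% were called higher and 4.38% lower. Of 10 tested markers of early lymphoid and stem cell progenitors 0 rose and 1 fell by limma, Meis1 itself (3 at an unadjusted p under 0.05). The mean level of that list was 8.08 to 8.54 in menin-deficient arrays, against 7.99 to 8.24 in control arrays. A dimmer probe set of Satb1 (1 of 5) was called lower. Of 9 stromal and endothelial markers 5 were tested and none passed by limma (1 at an unadjusted p under 0.05). The mean level of the list was 3.81 to 4.10 in menin-deficient arrays, against 3.85 to 4.10 in control arrays. Lepr, Col3a1, Pdgfra and Cdh5 lay within 0.1 of the lowest value, Cdh5 being among those tested. Col1a1, not tested, read 4.36 and 3.04 in control replicates 1 and 3 and 2.08 on every other array. Some markers of other lineages rose. The T cell list was at 5.29 to 5.44 in menin-deficient arrays, against 4.50 to 4.65 in control arrays. Of its 4 tested genes 3 were higher, Thy1 by 2.65, Lat by 1.76 and Cd3g by 0.78. Cd3e, Cd3d and Cd4 lay near the lowest value. The NK cell list was at 8.01 to 8.75 in menin-deficient arrays, against 7.16 to 7.73 in control arrays. By limma 2 of 5 rose, and 3 had an unadjusted p under 0.05. The plasmacytoid dendritic cell list was at 8.13 to 8.66 in menin-deficient arrays, against 7.24 to 7.58 in control arrays. Here 2 of 6 rose by limma, and 5 had an unadjusted p under 0.05. The myeloid list was at 8.25 to 9.30 in menin-deficient arrays, against 8.23 to 8.81 in control arrays. Of its 6 tested genes 1 rose by limma, and 2 had an unadjusted p under 0.05. Neither of the 2 tested erythroid markers passed by limma (0 at an unadjusted p under 0.05). The part of such cells in the values of Eya2, Apbb1 or Trpa1 was not tested.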

How the data were processed

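RNA of sorted pro-B cells was amplified, biotin-labelled and read on Affymetrix mouse expression arrays, per the labels' protocols. The authors deposited log2 values per probe set, a scale judged from their range. MAS5 and GCRMA appear in the submitters' processing notes with no version, and the tool behind the deposited values is not stated. Groups came from the titles, and p-values rest on 4 mice a group.

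Members, lists and tests were chosen with earlier results of these data known. After 64 control probe sets were set aside, 34945 probe sets carried a single gene symbol in the platform annotation. Probe sets above the 40th percentile of their array on 4 or more of 8 arrays were tested with lmFit and eBayes (limma 3.58.1, R 4.3.3, data.table version 1.17.8), with Benjamini-Hochberg adjustment over all of them, a threshold of 0.05 and no covariates. All adjusted p-values come from limma. The fit was tested on simulated data. The text names every member, called partner genes and up to 2 more per list, called neighbours and those of Eya1, and the 5 nearest profiles. H2ax, Baz1b, Pax5, Ptprc, Zmynd8, Sulf2 and the partner genes at the lowest value were named after their values were seen. So were Dntt, Rag1, Blnk, Igll1, Ebf1, Satb1, Col1a1, Thy1, Lat, Cd3g, Tle1, Tbl1xr1 and Jun. H2ax and Sting1 stand for older symbols. Promoters and neighbours came from RefSeq (GRCm38.p6). Figures used matplotlib 3.10.9 in Python 3.11.15.

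Alternatives were quantile normalization, centring, other filters, other summaries per gene, leaving out _x_at and _s_at probe sets, trended or robust eBayes, array weights, a replicate block, sex, a threshold of 0.10 and leaving out each array. Centring on the median tested gene was chosen after seeing the data.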

Additional observations from a re-analysis of the deposited data

Results flagged for a closer look

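Of 86 groups of 4 arrays (43 probe sets), those with almost no spread were passed over, among them groups constant at the lowest value. Of the groups examined, 11 held 1 array far from the other 3. Chance flags about 1 in 20 groups of normally spread values, a rate that does not apply to groups with tied values, at the lowest value or above it. For Eya1 this was menin-deficient replicate 1 on the brighter probe set (6.50, against 6.13 to 6.20 in the other menin-deficient arrays), still far below every control array. For Eya3 it was control replicate 1 on the probe set made from BB203079 (3.63, against 2.08 to 2.12). The same array stood apart on an Eya4 and a Six4 probe set, at 2.09 and 2.11 where the other control arrays read 2.08, the bottom of the scale. Among partners, Smad4 stood apart in menin-deficient replicate 4 (13.16) and in control replicate 1 (13.53). Among neighbours, control replicate 4 stood apart for Trpa1 (3.10) and Mzt1 (13.08, where the other control arrays were tied at 13.15). Among profiles near that of Eya1, Jchain stood apart in menin-deficient replicate 3 (5.25), and the immunoglobulin kappa segment (4.42) and Sytl4 (6.69) in menin-deficient replicate 2.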

How the results depend on the processing

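The Eya1 difference, which chose the members, is given as a description: it ran over -4.23 to -3.82 under 22 alternatives, with -4.23 to -3.91 when 1 array was left out, and ran over -3.89 to -3.26 on the dimmer probe set. Called member probe sets numbered 1 with the brightest probe set per gene and 1 with the mean per gene, which leave fewer to count, 4 at a threshold of 0.10 and 2 whichever array was left out. The Eya2 difference stayed within 0.90 to 1.47 and was called with the 60th percentile filter and at 0.10. The dimmer Eya3 probe set stayed within -0.51 to -0.31 and was called with array weights, at 0.10 and after centring on the median tested gene, and the brighter one ran over -0.17 to 0.15. Changed probe sets numbered 1935 without a filter, 2536 with the brightest probe set, 2011 with the mean, 5902 at 0.10 and 1786 to 3366 with 1 array left out (1995 for control replicate 1, 1786 and 2421 for menin-deficient replicates 2 and 4). Rises made up 51.7% of calls after quantile normalization, 75.8% with the brightest probe set and 77.9% with the mean. Called partner genes numbered 2 without a filter, 3 with the mean, 3 with sex as a covariate, 10 at 0.10 and 1 to 7 with 1 array left out. Deviations of same-numbered arrays correlated at -0.05, -0.26, -0.14 and 0.08 for numbers 1 to 4. No mismatched pairs were set beside them, so whether the numbers mark paired mice is not settled. With the replicate block 1083 probe sets, 2 member probe sets and 1 partner gene (Ep300) were called, and the Eya1 difference was -4.10. Apbb1 (limma adjusted p = 0.0738) and the neighbours Trpa1, Ncoa2, Xkr8, Mnat1 and Mzt1 (0.0518 to 0.0943) were not called with it. Tram1 changed sign with array weights (0.0164) and ran over -0.0462 to 0.0276 with 1 array left out, 0.0012 for menin-deficient replicate 1, and Terf1 was at 0.00056 with the mean. Except where an alternative leaves fewer probe sets or arrays, the cause was not tested. Signal over the lowest value limits what can be said of Eya4, Six4, Six5 and Dach1.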
